A study of Mus musculus with 8 samples.

Results

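Transcripts of the bile duct epithelium and of liver progenitor cells were examined in whole livers of 4-week-old mice. The set holds 9 genes, the keratins Krt7, Krt8, Krt18 and Krt19, the transcription factor Sox9, the surface proteins Epcam, Prom1 and Cd24a, and the chloride channel Cftr. They were chosen by symbol, each through the brightest probe set tied to that symbol alone. All 9 were measured, each by 1 probe set, among 19938 genes. Livers came from 4 transgenic mice, in which the LAP promoter drives an IKK2 kinase made constitutively active, and from 4 wild type control mice. Both groups share a genetic background of C57BL/6 and NMRI, with 4 or more backcrosses to C57BL/6. The LAP promoter is known for its activity in hepatocytes, which are not the cells that line the ducts. Each liver was read on 1 array, and according to the labels the livers of a group are biological replicates. Values are log2 expression as deposited.

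Bile ducts are lined by cholangiocytes, epithelial cells that carry bile to the gut and add water and bicarbonate to it. Their cytoskeleton holds the keratin pair 7 and 19 beside the pair 8 and 18, whereas hepatocytes normally hold 8 and 18 alone. In chronic liver injury cells with duct and progenitor features can multiply around the portal tracts, a change known as the ductular reaction, and these cells are recognised by keratin 19, Sox9, Epcam, Prom1 and Cd24. NF-kB, which IKK2 switches on, is the main transcription factor of inflammatory signalling. In whole liver a lower number of cells of one type and less RNA per cell cannot be told apart.

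The gene of the kinase, Ikbkb, read 8.995, 9.09, 8.38 and 8.38 in the transgenic replicates 1 to 4, against 7.79, 7.44, 7.85 and 7.77 in control replicates 1 to 4. Whether its probe set also reads the transgene was not tested. The tissue label was checked through hepatocyte markers, of which 11 of 11 measured read above the median gene. Array medians lay between 4.88 and 5.08, a scale against which a reading can be judged dim, since no background was measured. With all genes tested by limma, 4.67% of genes were higher and 1.67% lower in transgenic liver (932 and 333 genes), a split of 1066 and 638 after quantile normalization and of 618 and 97 once arrays were centred on their medians.

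None of the 9 genes passed limma's test between transgenic and control livers, against 6.34% of all genes. At an unadjusted p under 0.05 there were 3 of 9 (Krt19, Prom1 and Cd24a), against 33.6% of all genes. The groups did not overlap for the same 3 genes, Krt19 being lower and Prom1 and Cd24a higher in transgenic liver, against 22.4% of all genes. Both shares are near the background for so few genes. Of the 9 log2 fold changes, transgenic minus control, 5 were positive and 4 negative, against 38.4% positive among all genes, with a median of 0.01 against -0.07 for all genes.

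**Figure D1:**
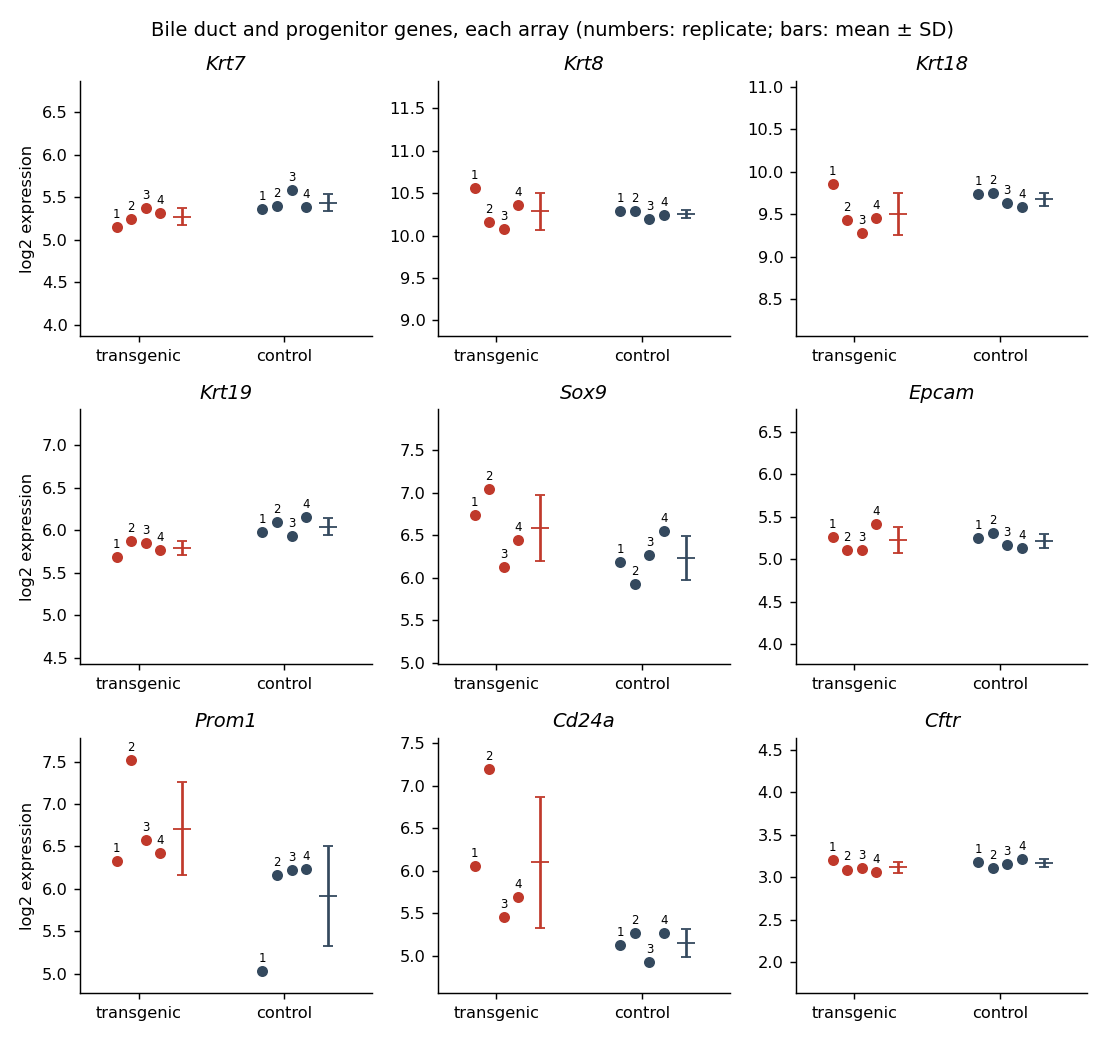
Log2 expression of each of the 9 genes in every array (y axis, each panel spanning the same number of log2 units), with the 4 transgenic livers at the left and the 4 control livers at the right of each panel, and bars for the mean and SD. Prom1 and Cd24a reach 7.52 and 7.20 in transgenic replicate 2, and Prom1 is at 5.04 in control replicate 1, whereas the keratins stay within narrow bands.

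Keratins 7 and 19, the pair that sets cholangiocytes apart from hepatocytes, did not pass, and both stood lower on average in transgenic liver. Krt19 (probe set 10391036), the type I partner and the usual stain for ducts, read 5.69, 5.87, 5.84 and 5.76 in the transgenic replicates 1 to 4, against 5.98, 6.09, 5.93 and 6.15 in control replicates 1 to 4. Every transgenic liver lay below every control liver. The log2 fold change was -0.25 (SE 0.08, 95% interval -0.44 to -0.06, adjusted p = 0.0885), a level 1.19-fold lower in transgenic liver that did not pass. Adjusted p ranged from 0.0560 after quantile normalization to 0.241 with arrays centred on their medians, the treat test aside. That test, which asks for a change over 1.2-fold, did not call Krt19 either.

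Krt7 (probe set 10427052), a type II keratin of simple epithelia, read 5.15, 5.24, 5.38 and 5.32 in the transgenic replicates 1 to 4, against 5.36, 5.40, 5.58 and 5.39 in control replicates 1 to 4. The groups overlapped only through transgenic replicate 3, which lay just above control replicate 1. Its log2 fold change was -0.16 (SE 0.09, 95% interval -0.36 to 0.03, adjusted p = 0.214). Readings of Krt7 lie close to the array medians, which limits how small a duct signal this probe set could show.

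Keratins 8 and 18 form the filaments of hepatocytes as well as of cholangiocytes, so their readings do not single out ducts. Their genes lie near each other on mouse chromosome 15, with no other protein-coding gene between them, and with start sites 23.9 kb apart and transcribed away from each other. The 250 bases before each start site are shown because the readings of this pair departed from their group means together, as described next. They come from RefSeq on GRCm38.p6, at chr15:102004343-102004592 on the minus strand for Krt8 and chr15:102027966-102028215 on the plus strand for Krt18, written 5′ to 3′.
Krt8: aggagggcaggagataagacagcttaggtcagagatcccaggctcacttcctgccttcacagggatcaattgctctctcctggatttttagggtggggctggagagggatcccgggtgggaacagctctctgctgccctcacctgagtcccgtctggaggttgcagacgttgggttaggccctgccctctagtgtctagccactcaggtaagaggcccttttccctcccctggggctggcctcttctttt
Krt18: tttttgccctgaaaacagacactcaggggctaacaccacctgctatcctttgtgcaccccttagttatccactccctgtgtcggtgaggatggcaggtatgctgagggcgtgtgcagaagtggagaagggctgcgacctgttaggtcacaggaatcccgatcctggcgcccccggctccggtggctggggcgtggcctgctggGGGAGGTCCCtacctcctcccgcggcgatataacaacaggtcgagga
Capitals mark the match to the 10-base consensus of NF-kB sites, which starts 47 bases before the Krt18 start, reads on either strand, and stands in 7.25% of 32851 such windows of all genes. It is a match of letters, not a measured site, and Krt18 itself was not called. The Krt8 stretch holds no such match, and neither stretch holds TATAAA (in 12.4% of windows) or the GC box GGGCGG (32.7%), searched on both strands. GC content is 58.0% before Krt8 and 60.4% before Krt18.

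Krt8 (probe set 10432918) read 10.56, 10.15, 10.08 and 10.36 in the transgenic replicates 1 to 4, against 10.29, 10.29, 10.20 and 10.25 in control replicates 1 to 4. Control livers lay inside the span of the transgenic ones. The means were 10.29 ± 0.22 in transgenic and 10.26 ± 0.04 in control livers (SD, n = 4 each), and the log2 fold change was 0.03 (SE 0.11, 95% interval -0.22 to 0.28, limma adjusted p = 0.847). That interval reaches from 0.861-fold to 1.21-fold. Its sign turned without transgenic replicate 1 (-0.06) and after quantile normalization (-0.02).

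Krt18 (probe set 10427075), the type I partner of Krt8, read 9.86, 9.44, 9.28 and 9.45 in the transgenic replicates 1 to 4, against 9.73, 9.75, 9.63 and 9.59 in control replicates 1 to 4. Transgenic replicate 1 was the highest of all arrays and the other 3 transgenic livers lay below all controls. The log2 fold change was -0.17 (SE 0.12, 95% interval -0.44 to 0.10, adjusted p = 0.331), and without transgenic replicate 1 it was -0.29 (adjusted p = 0.151). Both keratins were highest in transgenic replicate 1 and lowest in transgenic replicate 3.

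The deviations of each array from its group mean were compared between every pair of the 9 genes, 36 pairs in all, as a description over 8 arrays that share a labelling protocol. Krt8 and Krt18 had the highest coefficient (r = 0.91). Without transgenic replicates 1 and 3, the 2 arrays farthest from the median in Krt8, r was 0.47, so the relation rests largely on those livers. Krt19 ran the other way from Krt8 (r = -0.55, and -0.24 without the same 2 arrays), and Krt7 and Krt19 were near 0 (r = -0.09). Of the 36 coefficients 5 were above 0.5 and 5 below -0.5.

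**Figure D2:**
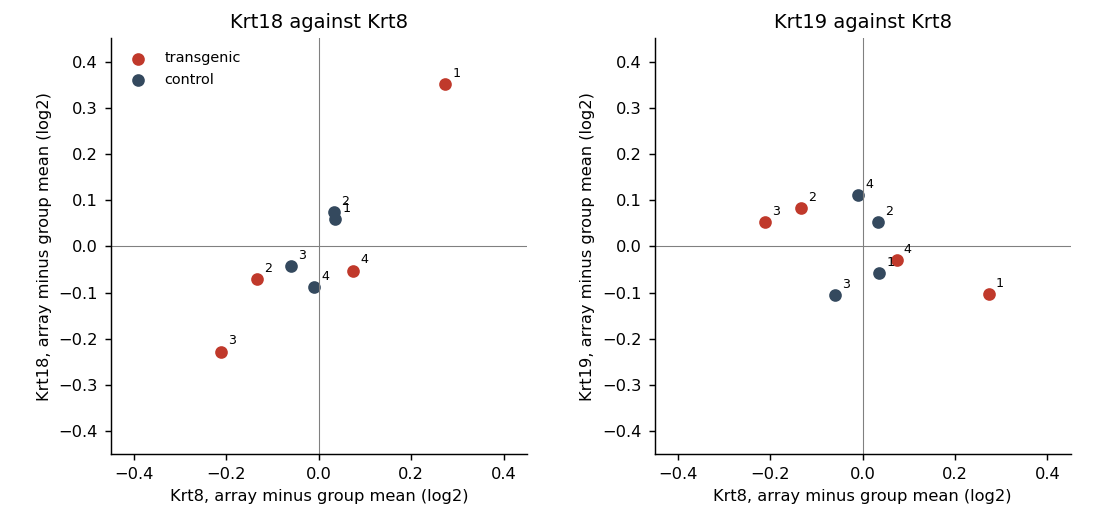
Deviation of each array from its group mean in log2 units, for Krt18 (left, y axis) and Krt19 (right, y axis) against Krt8 (x axis), with transgenic and control arrays in different colours and numbered by replicate. Krt18 follows Krt8 (r = 0.91), with transgenic replicates 1 and 3 at the ends, whereas Krt19 does not (r = -0.55).

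Sox9 is the transcription factor that marks the developing duct plate and progenitor cells. Its probe set (10382328) read 6.74, 7.04, 6.13 and 6.44 in the transgenic replicates 1 to 4, against 6.18, 5.92, 6.26 and 6.55 in control replicates 1 to 4. Transgenic replicates 1 and 2 lay above all controls and the other transgenic livers lay among them. The log2 fold change was 0.36 (SE 0.20, 95% interval -0.08 to 0.80, adjusted p = 0.217). It was 0.21 without transgenic replicate 2 (adjusted p = 0.461) and 0.15 with array weights (adjusted p = 0.588).

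Prom1 encodes prominin-1, also called CD133, a membrane protein of progenitor cells in several tissues. Its start site, shown because Prom1 had one of the larger differences, lies on chromosome 5. The 250 bases before it from RefSeq on GRCm38.p6, chr5:44101737-44101986 on the minus strand, are written 5′ to 3′ with a GC box (GGGCGG) in capitals.
Prom1: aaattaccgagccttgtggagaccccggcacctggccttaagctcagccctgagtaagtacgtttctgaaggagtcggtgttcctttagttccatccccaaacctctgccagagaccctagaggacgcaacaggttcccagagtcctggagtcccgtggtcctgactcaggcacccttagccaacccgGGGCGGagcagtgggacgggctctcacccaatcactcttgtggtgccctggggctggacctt
The box starts 62 bases before the start site, and the other motifs searched above have no match here. The annotated gene runs 5′ past this window, to position 44102047, so the start used here lies inside it, as does a further RefSeq start that is not shown.

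Prom1 (probe set 10529824) read 6.33, 7.52, 6.57 and 6.42 in the transgenic replicates 1 to 4, against 5.04, 6.17, 6.23 and 6.24 in control replicates 1 to 4. The groups did not overlap, but 3 transgenic and 3 control livers lay within a narrow band around the gap. The means were 6.71 ± 0.55 in transgenic and 5.92 ± 0.59 in control livers (SD, n = 4 each), a log2 fold change of 0.79 (SE 0.32, 95% interval 0.07 to 1.51, limma adjusted p = 0.124). It was 0.50 without control replicate 1 (adjusted p = 0.217) and 0.52 without transgenic replicate 2 (adjusted p = 0.248).

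Cd24a, a small sugar-coated protein anchored in the membrane, is found on progenitor cells, on cholangiocytes and on several blood cells. Its probe set (10362896) read 6.05, 7.20, 5.46 and 5.69 in the transgenic replicates 1 to 4, against 5.13, 5.27, 4.93 and 5.27 in control replicates 1 to 4. Every transgenic liver lay above every control liver. The log2 fold change of 0.95 (1.93-fold, SE 0.32, 95% interval 0.25 to 1.66, adjusted p = 0.0836) was the largest of the 9 and did not pass. Without transgenic replicate 2 it was 0.59 and passed (adjusted p = 0.0442). Without transgenic replicate 3 it was 1.17 and passed as well (adjusted p = 0.0469), while with all 8 arrays and in the other settings tried it did not. Those 2 fits are the only ones in which any of the 9 genes was called.

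Several blood cells carry Cd24a, and their markers are therefore given beside it. The mean log2 level of 10 macrophage markers reached 9.78 in transgenic replicate 2 and lay at 8.49 to 8.91 in the remaining transgenic livers, against 6.81 to 7.15 in control livers. Of these 10, 9 rose and 0 fell, among them the lysozyme Lyz2 (log2 fold change 2.84), the monocyte receptor Ccr2 (3.72) and the integrin Itgam (2.30). Itgam lost its call without transgenic replicate 1 and without control replicates 1, 2 or 3 (adjusted p up to 0.0609). For 10 lymphocyte markers the mean reached 5.16 in transgenic replicate 2 and lay at 4.71 to 4.91 in the remaining transgenic livers. It lay at 4.52 to 4.68 in control livers. Of these 10 the T cell receptor chain Cd3g rose, by 1.53. The B cell genes of the list did not pass, with Cd79a at -0.19, Cd79b at -0.05, Pax5 at -0.07, Cd22 at 0.14 and Ms4a1 at 0.22. For 9 neutrophil markers it reached 4.84 in transgenic replicate 2 and lay at 4.23 to 4.41 in the remaining ones, against 4.24 to 4.46 in control livers, and 0 of them passed limma's test (1 at an unadjusted p under 0.05, Ltf, at 0.23). The 6 erythroid markers had means of 5.54 to 5.89 in transgenic livers, against 5.69 to 5.89 in control livers. Their log2 fold changes were 3 positive and 3 negative, with the brightest, Alas2, at 0.16 and not called. Gata1, which read below every array median, fell by 0.40. Its call was lost without transgenic replicates 1 or 2 and without each control (adjusted p up to 0.108). The part of these cells in the readings of Cd24a was not tested.

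Epcam, an adhesion molecule of duct and progenitor cells that adult hepatocytes lack, differed little between the groups. Its probe set (10447383) read 5.26, 5.10, 5.11 and 5.42 in the transgenic replicates 1 to 4, against 5.25, 5.30, 5.16 and 5.13 in control replicates 1 to 4. The groups overlapped throughout. The log2 fold change was 0.01 (SE 0.09, 95% interval -0.20 to 0.23, adjusted p = 0.925), an interval from 0.871-fold to 1.17-fold. Its sign turned without transgenic replicates 1 or 4 (-0.0002 and -0.05) and without control replicates 3 or 4 (-0.0028 and -0.01). These readings, like those of Krt7, lie close to the array medians.

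Cftr, the chloride channel through which cholangiocytes drive bicarbonate into bile, read 3.20, 3.09, 3.11 and 3.06 in the transgenic replicates 1 to 4, against 3.18, 3.10, 3.16 and 3.22 in control replicates 1 to 4 (probe set 10536563). All 8 readings lie below every array median, so a difference in this transcript may not have been detectable. The log2 fold change was -0.05 (SE 0.07, 95% interval -0.22 to 0.12, adjusted p = 0.641), and 0.03 once arrays were centred on their medians.

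**Figure D3:**
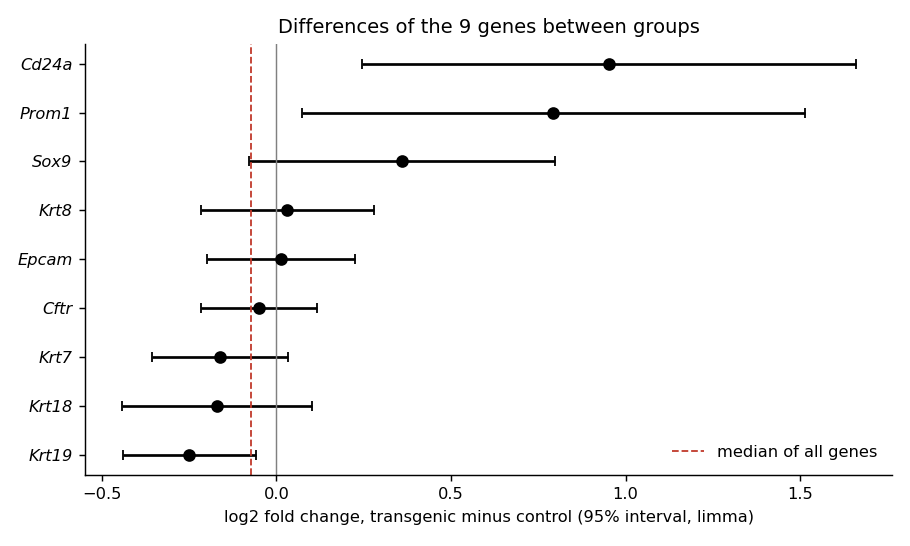
Log2 fold change of the 9 genes, transgenic minus control (x axis), with limma's 95% intervals and genes ordered by value (y axis). The dashed line is the median of all genes (-0.07), which lies within the intervals of all but Prom1 and Cd24a.

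Genes that share a role with the 9 were read through 5 lists, 79 different genes in all, of which 10 rose, 1 fell and 68 did not pass. The called share was 13.9%, against 6.34% of all genes (4.67% higher and 1.67% lower), a description with no test of the lists. The lists were chosen with earlier results of these data known, so this share cannot stand for duct or progenitor genes in general. Among 18 measured markers of the duct epithelium 4 rose and 0 fell, with a median log2 fold change of -0.07, the same to 2 decimals as that of all genes. Tff3, a trefoil peptide secreted with mucus, rose 5.71-fold. It read 11.70, 9.60, 9.86 and 9.57 in the transgenic replicates 1 to 4, against 8.13, 8.16, 7.20 and 7.19 in control replicates 1 to 4 (log2 fold change 2.51, SE 0.46, adjusted p = 0.0190). The epithelial transcription factor Elf3 rose by 1.39 (SE 0.31, adjusted p = 0.0358). The RNA-binding protein Bicc1, whose loss causes cysts in kidney and bile ducts of mice, rose by 1.33 (SE 0.24, adjusted p = 0.0181). This was read through the brighter of its 2 probe sets, and the mean of both gave 1.19 (adjusted p = 0.0360). The annexin Anxa5 rose by 1.02. Anxa5 was named after its value was seen. It averaged 10.03 in control livers, against 7.67 for Tff3 and 6.04 for Krt19. The part of cells other than duct cells in the readings of these called markers was not tested. The 14 that did not pass lay on both sides of 0, 5 of the 14 being positive. The smallest adjusted p among them was that of the epithelial cadherin Cdh1, at 0.69 (adjusted p = 0.0686), and the protease St14 stood at 0.29 and Pkhd1, the gene of fibrocystin, at 0.27. On the negative side Onecut1 stood at -0.41 and the claudin Cldn3 at -0.36, both above the median gene by level. Krt23 stood at -0.34, the claudins Cldn4 and Cldn7 at -0.31 each, and the secretin receptor Sctr at -0.24. Krt23, Cldn4, Cldn7 and Sctr lie in the second 25% of genes by level. In that part 76.6% of all log2 fold changes were negative, with a median of -0.17.

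Of 15 measured hepatoblast and progenitor genes 3 rose and 0 fell, with a median of 0.04. They were the adhesion proteins Icam1 (log2 fold change 2.71, SE 0.27, adjusted p = 0.00127), Cd44 (2.09, SE 0.27, adjusted p = 0.0051) and Alcam (0.86, adjusted p = 0.0281). Leukocytes carry all 3 too, and their part in these readings was not tested. The fetal liver products did not pass. Afp, the fetal albumin, stood at 0.08, Igf2 at -0.21 and Dlk1 at -0.53.

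Notch signals from portal tissue instruct hepatoblasts to become duct cells, and the Hippo pathway effector Yap keeps them so. Of 18 genes of both pathways 1 rose and 0 fell, with a median of 0.06. Rbpj, the DNA-binding partner of Notch, rose by 0.90 (SE 0.17, adjusted p = 0.0227) through its brighter probe set. Its dimmer one, which read 3.66 in transgenic and 3.85 in control livers on average, stood at -0.19 (adjusted p = 0.298), and the mean of both gave 0.36 (adjusted p = 0.0645). The receptor Notch2 stood at 0.84 (adjusted p = 0.0563), the ligand Jag1 at -0.05 and the Notch target Hes1 at -0.41. Yap1 stood at 0.08. Tead1 stood at 0.73 through the brighter of its 2 probe sets (adjusted p = 0.0558), and its groups did not overlap. Tead2 stood at -0.20 and Tead4 at -0.09.

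Of 14 measured transporters and regulators of duct secretion 1 rose and 1 fell, with a median of -0.09. The sodium bicarbonate cotransporter Slc4a4 rose by 1.00 (SE 0.21, adjusted p = 0.0323). It averaged 8.08 in control livers, and the part of cells other than duct cells in its readings was not tested. The chloride channel Clcn2 fell by 0.74 (SE 0.18, adjusted p = 0.0433), and the call was lost once arrays were centred on their medians (adjusted p = 0.0579). The largest change of the list in size was that of Slc10a2, at -1.08, which did not pass (adjusted p = 0.116) and whose groups overlapped. Car2 stood at 0.71 (adjusted p = 0.0574) and Gpbar1 at -0.30 (adjusted p = 0.113). The water channel Aqp1 stood at -0.20 and the anion exchanger Slc4a2, the main bicarbonate exit of cholangiocytes, at -0.07. Of 14 cytolinkers, desmosome proteins and other filament genes 1 rose and 0 fell, with a median of 0.19. Vimentin (Vim), the filament of mesenchymal cells and leukocytes and highest in transgenic replicate 2 like the macrophage markers, rose by 1.12 (SE 0.26, adjusted p = 0.0384), and the part of those cells was not tested. The cytolinker Plec, which ties keratins to junctions, stood at 0.36 (adjusted p = 0.0810).

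The calls in these lists depend on which arrays are kept. Leaving out each array in turn gave 2 to 13 higher and 0 to 2 lower genes. Without transgenic replicate 1 there were 3 higher genes, and without control replicates 1, 2, 3 or 4 there were 3, 2, 2 and 2. Only Icam1 and Cd44 of the 11 genes named as called kept their call in all 18 settings tried. Elf3, Bicc1, Anxa5, Alcam, Rbpj, Slc4a4, Clcn2 and Vim lost it in each of those 5 omissions (adjusted p from 0.0507 to 0.126), and Tff3 without control replicates 2, 3 or 4 (adjusted p up to 0.0694).

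**Figure D4:**
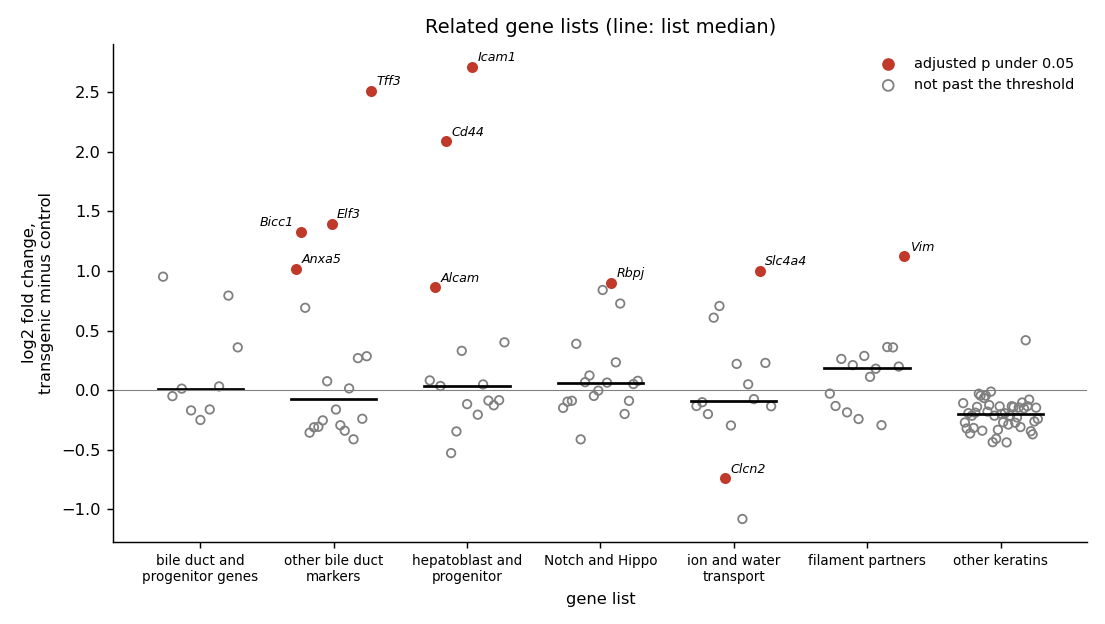
Log2 fold change, transgenic minus control (y axis), of each measured gene in the 9-gene set, the 5 related lists and the other keratin genes (x axis), with the list median as a line and genes past an adjusted p of 0.05 filled and named. Filled points lie in the 5 related lists only, and their medians lie between -0.09 and 0.19.

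The remaining keratin genes of the array serve as a view of the family largely outside the duct, since most belong to skin and hair. Krt23 is among them and is also in the list of duct markers. Of 44 such genes 0 passed limma's test, against 6.34% of all genes, and 12 were at an unadjusted p under 0.05, against 33.6% of all genes. Their median log2 fold change was -0.20 and 43 of 44 were negative, the exception being Krt80 at 0.42 (adjusted p = 0.0756), named after its value was seen. Their levels were low, with 4 of the 44 above the median gene. In the dimmest 25% of all genes 81.7% of log2 fold changes were negative, with a median of -0.10. In the next 25% the share was 76.6%, with a median of -0.17, against 61.6% over all genes. After quantile normalization 37 of the 44 were negative, and 37 again once arrays were centred on their medians. Krt7 (-0.16), which lies in the second 25% by level, and Krt19 (-0.25), which lies in the third, were negative too. In the third 25% the share of negative values was 45.2%, with a median of 0.04.

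Markers of tissues that could carry keratins into a liver sample were read as well. Mesothelium, which covers the organ and makes keratins 8, 18 and 19, had 6 measured markers with list means of 5.03 to 5.40 in transgenic livers, against 5.44 to 5.57 in control livers, array medians being 4.88 to 5.08 over both groups. Of the 6, Gpm6a, Msln and Upk3b lay above the median gene. None of the 6 passed limma's test (2 at an unadjusted p under 0.05), and Upk1b stood at -0.42 (adjusted p = 0.0540). The 7 markers of pancreas and gut had means of 4.61 to 4.94 in transgenic livers, against 5.06 to 5.20 in control livers, with 1 of the 7 above the median gene, and the elastase Cela1 fell by 0.43 (adjusted p = 0.0408), with the call lost without transgenic replicates 1 or 2 and without control replicates 1, 2 or 4 (adjusted p up to 0.117). The markers of both lists that lie below the median gene are in the second 25% of genes by level. There 76.6% of all log2 fold changes were negative, with a median of -0.17. Gpm6a, Msln, Upk3b and Cela1 lie in the third 25%, where 45.2% were negative, with a median of 0.04. All 6 mesothelium markers and all 7 of pancreas and gut had negative log2 fold changes. Krt19 was lower in the same transgenic livers, and the part of mesothelium, pancreas and gut in its readings was not tested. Of 11 hepatocyte markers 0 passed limma's test (4 at an unadjusted p under 0.05), with a median of -0.17 and Apoc3 at -0.51 (adjusted p = 0.0859). Of 8 stellate and endothelial markers 0 passed (3 at an unadjusted p under 0.05), with a median of 0.32 and Pecam1 at 0.33 (adjusted p = 0.0684).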

How the data were processed

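The authors' deposited values are log2 expression, 1 for each probe set of an array. The submitters' processing notes name Affymetrix Expression Console; no version, setting or normalization method was found in the sources used here. Total RNA from frozen liver was labelled for whole transcripts, per the labels' protocols. No further normalization was applied. Of 35556 probe sets, 21789 had a single gene symbol, 1621 had several and 12146 had no symbol. Limma 3.58.1 (R 4.3.3, package data.table, version 1.17.8) fitted the group as the only term to the 21789, with empirical Bayes moderation, two-sided tests and Benjamini-Hochberg adjustment over all of them. A call is an adjusted p under 0.05. Each gene was then counted once, through its brightest probe set. SE and 95% intervals are limma's, not adjusted for multiple tests. The steps were tested on simulated data.

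The 9 genes, the lists and the naming rule (the 3 called genes of a list with the largest changes, or the gene with the smallest p) were chosen with earlier results of these data known. Other members of lists whose values are given were added after their values were seen. Examples are Afp, Jag1, Hes1, Yap1, Tead1, Tead2, Tead4, Notch2, Aqp1, Slc4a2, Slc10a2, Car2, Gpbar1, Plec, Cdh1, St14, Pkhd1, Onecut1 and Cldn3. Of 9 genes, 6 had a promoter window from RefSeq, and Krt19, Sox9 and Cd24a did not. Motifs were chosen after the expression values were seen.

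Alternatives were quantile normalization, centring on array medians, a filter on the dimmest 30% or 50%, a fit to all probe sets, the mean over the probe sets of a gene, trend and robust moderation, array weights, a replicate block, the treat test for changes over 1.2-fold, and the omission of each array. The number of arrays limits the precision.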

Additional observations from a re-analysis of the deposited data

Results flagged for a closer look

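In 60 groups of 4 arrays (30 genes in 2 groups) 4 had 1 array far from the other 3, by Dixon's criterion at 95%, and chance alone gives about 1 in 20. Prom1 read 5.04 in control replicate 1, whereas the remaining controls lay at 6.17 to 6.24. Krt7 read 5.58 in control replicate 3, whereas the remaining controls lay at 5.36 to 5.40. Tff3 read 11.70 in transgenic replicate 1, whereas the remaining transgenic livers lay at 9.57 to 9.86. Vim read 10.71 in transgenic replicate 2, whereas the remaining transgenic livers lay at 9.40 to 9.61.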

How the results depend on the processing

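Of the 9 genes none was called in 16 of the 18 settings. Leaving out each array gave 0 to 1 higher and 0 lower of them, Cd24a being called without transgenic replicates 2 (0.59, adjusted p = 0.0442) or 3 (1.17, adjusted p = 0.0469). Signs near 0 turned for Krt8 after quantile normalization (-0.0161), for Cftr with arrays centred on their medians (0.0298), and on leaving out an array for Krt8 (-0.0589 to 0.103) and Epcam (-0.0509 to 0.0535). Cftr was not tested without the dimmest 30% or 50% of probe sets, where it was left out. Over all genes, 618 were higher and 97 lower with centring, 425 and 54 with all deposited probe sets, and 271 and 8 in the treat test, while 638 were lower after quantile normalization and 501 with array weights. Leaving out each array gave 192 to 1636 higher and 3 to 944 lower genes. In the 5 related lists 6 were higher and 0 lower with all probe sets, 3 and 0 in the treat test, and 0 lower with centring; leaving out each array gave 2 to 13 higher and 0 to 2 lower. Of the other keratins 1 was lower after quantile normalization, 1 was higher and 1 lower with array weights, and leaving out each array gave 0 higher and 0 to 4 lower. Whether the replicate numbers pair the samples is not known. Correlations of same-numbered deviations were 0.24, -0.03, 0.26 and -0.13, and they were not compared with those of differently numbered arrays. With the replicate block 670 genes were higher and 174 lower, 0 of the 9 genes were called, and 9 genes of the related lists were higher and 2 lower. Without detection values it is not known how far the readings of Krt7, Epcam and Cftr, near or below the array medians, lie above background. The cause of these shifts was not tested.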
